A study of Mus musculus with 10 samples.

Results

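The 10 genes described here encode enzymes that use arginine or make and break down polyamines. They are Arg1, Arg2, Nos2, Ass1, Asl, Odc1, Srm, Sms, Sat1 and Smox. They were taken as a list of symbols, drawn up with earlier results of these data known but by a rule that uses no measured value, and all 10 were found among the 28585 genes of the deposited count table. RNA-seq libraries had been made from fluorescent cells sorted from the ischemic hemisphere of mouse brains, and the study compared CD11c-eYFP+ cells with microglia. The parabiotic CD11c cells (3 libraries, replicates 3, 11 and 15) came from C57BL/6 mice joined to Tg(Itgax-Venus)1Mnz mice, aged 15 to 16 weeks. The transgenic CD11c cells (4 libraries, replicates 23, 24, 26 and 27) came from Tg(Itgax-Venus)1Mnz mice aged 13 to 14 weeks. The microglia (3 libraries, replicates 39, 40 and 41) came from CX3CR1CreERT2:Rosa26-tdT mice aged 13 to 14 weeks. The labels give female mice for 9 libraries. Parabiotic replicate 15 was placed by its title, since it carries the genotype Tg(Itgax-Venus)1Mnz on a C57BL/6 strain and no label of cell type or sex.

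In each reporter strain the gate rests on 1 promoter. The Itgax promoter drives the fluorescent protein in CD11c cells of any origin, resident cells included, whereas in parabiosis the marked cells reach the partner through the shared blood. The inducible Cre of the microglia strain is driven from Cx3cr1, a gene that other brain macrophages and monocytes also use. Nothing in the labels says whether a library pooled animals. Whether replicates are separate animals is also not stated, so p-values measure the spread between these libraries.

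Arginine stands at a fork in myeloid cells. Arginases split it into urea and ornithine, whereas inducible nitric oxide synthase turns it into nitric oxide and citrulline, and both use the same substrate. Citrulline can be built back into arginine by argininosuccinate synthase and lyase. Ornithine feeds ornithine decarboxylase, which opens the route to the polyamines putrescine, spermidine and spermine, and separate enzymes acetylate and oxidise these polyamines back down. In mouse macrophages high Arg1 is a textbook mark of alternative activation and high Nos2 of classical activation.

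Among the 10 genes the arginases gave the largest fitted changes relative to microglia in both kinds of CD11c cell, and neither was called between the CD11c populations. Arg1 and Arg2 were nearly silent in microglia and rose in both kinds of CD11c cell, whereas Nos2 stayed near the limit of detection in all 3 groups. Asl rose in the parabiotic cells, and Smox, a spermine oxidase, fell in both kinds of CD11c cell. In transgenic cells the Arg1 call held in 13 and the Smox call in 10 of 20 alternative settings. The size of the transgenic Arg1 change rests on replicate 27. The enzymes that make polyamines, Odc1, Srm and Sms, and the acetylating enzyme Sat1 did not pass the test in any comparison. Levels below are read counts scaled to library size with TMM factors (CPM), and a gene is called at an edgeR quasi-likelihood adjusted p under 0.05, with Benjamini-Hochberg adjustment over all 15151 genes tested. All 10 genes passed the filter on low counts.

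Parabiotic cells against microglia gave 3 of the 10 genes higher and 1 lower, beside 17.4% of all tested genes higher and 17.9% lower. Transgenic cells against microglia gave 2 higher and 1 lower, beside 8.88% and 4.79% of all genes. Transgenic against parabiotic cells gave 1 lower, beside 2.42% of all genes lower, and none higher, beside 7.63%; none of the 10 was higher there at an unadjusted p under 0.05 either, nor by DESeq2 or limma-voom. With 10 genes these shares lie near the backgrounds, and the counts are therefore not a result about the list; the sizes of the single changes are given below. Their median log2 fold change was 0.57, 0.24 and -0.11 in the 3 comparisons in the order given, against -0.02, 0.02 and 0.04 for all genes tested.

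**Figure D1:**
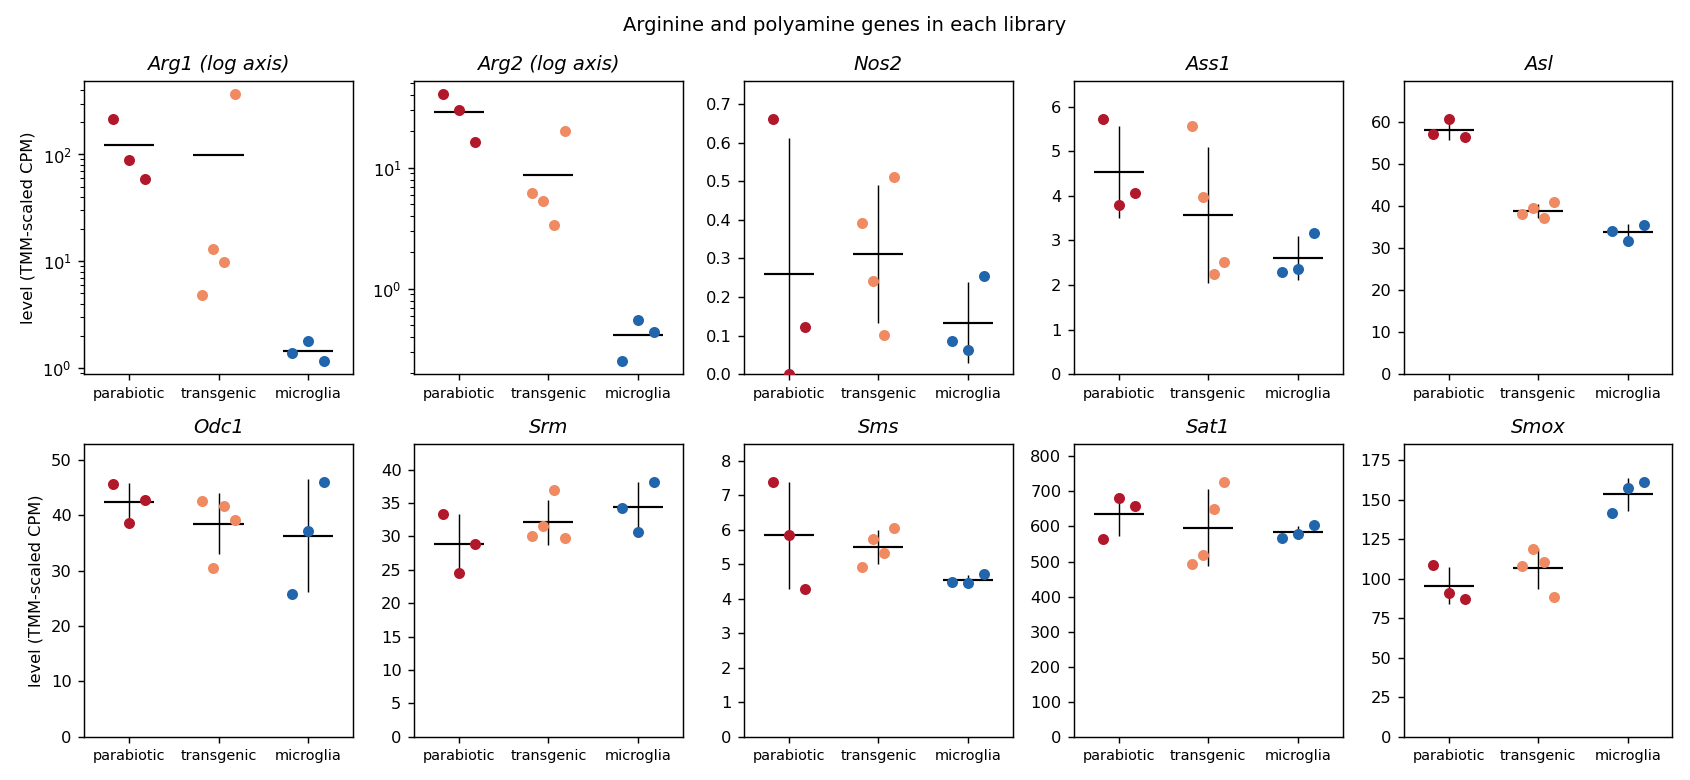
Level of each gene in every library, as TMM-scaled CPM, with parabiotic CD11c cells in red, transgenic CD11c cells in orange and microglia in blue. Horizontal lines are group means and vertical lines are ± 1 SD, which the 2 panels with a log axis leave out; Arg1 and Arg2 separate all CD11c libraries from all microglia libraries, and transgenic replicate 27 stands far above the other transgenic libraries for Arg1.

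Library totals ran between 31534625 and 41730688 counts. Transgenic replicates 26 and 27 carry library numbers far apart from the consecutive numbers of the other 8 libraries. The labels do not say what this gap is. Calls of transgenic cells given below for the 10 genes and for the genes around the pathway that are lost with a term for these 2 libraries are also given with that term. Itgax, the gene of CD11c, measured 541.6, 441.5 and 528.3 CPM in parabiotic cells, 349, 318, 114 and 116.8 CPM in transgenic cells and 22.6, 56.9 and 53.7 CPM in microglia. A sum over 10 microglia markers, among them P2ry12 and Tmem119, ran between 3985 and 5608 CPM in parabiotic cells, between 8619 and 20557 CPM in transgenic cells and between 28884 and 29835 CPM in microglia. Microglia markers were thus counted in both CD11c populations, more in the transgenic one. In bulk RNA of this kind, fewer cells of a type and less RNA per cell cannot be told apart.

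Arg1 (ENSMUSG00000019987) encodes the cytosolic arginase of liver and of alternatively activated mouse macrophages, and lies on the minus strand at chr10:24915221-24927484 of GRCm38. Arg2 (ENSMUSG00000021125) encodes the mitochondrial arginase and lies on the plus strand at chr12:79130777-79156301. Their coding sequences have 972 and 1065 bases and match at 617 of 956 aligned bases, or 64.5%, with no identical run longer than 12 bases. Arg1 had no near-identical copy elsewhere in the annotated transcripts.

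Arg1 measured 217, 89.3 and 58.6 CPM in the parabiotic libraries, with 1929 to 7555 reads behind each value. In transgenic cells it measured 4.80, 13.0, 9.94 and 365.5 CPM in replicates 23, 24, 26 and 27. In microglia it measured 1.38, 1.78 and 1.17 CPM, from 37 to 58 reads. No CD11c library overlapped the microglia, and the lowest parabiotic library lay 32.9-fold above the highest microglial one, against 2.70-fold for the lowest transgenic library. The highest transgenic library held 76.2-fold more Arg1 than the lowest, so that this group ran from just above microglia to above every parabiotic library. Relative to microglia, Arg1 rose by 6.39 ± 1.65 on the log2 scale in parabiotic cells (SE, edgeR adjusted p = 0.0114). The call was lost when no filter on low counts was used, with a change of 6.38 and an edgeR adjusted p of 0.0767.

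Relative to microglia, the transgenic cells gave an Arg1 change of 6.08 ± 1.61 (SE, log2, edgeR adjusted p = 0.0307), a value that rests on replicate 27 for its size. Without replicate 27 the change was 2.69 (edgeR adjusted p = 0.00907), and without replicates 26 and 27 it was 2.61 (edgeR adjusted p = 0.0359). In all, the call was lost in 7 of 20 alternative settings. With a term for the 2 later library numbers the change was 2.62 (edgeR adjusted p = 0.231); 8.6% of all tested genes were called with that term. By limma-voom it was 3.96 (adjusted p = 0.2), with only the 2 groups in the fit 6.10 (edgeR adjusted p = 0.0633) and with no filter on low counts 6.03 (edgeR adjusted p = 0.14). The call also failed when any 1 of microglia replicates 39, 40 or 41 was left out, with changes between 5.92 and 6.21 and an edgeR adjusted p between 0.0948 and 0.13. Arg1 was higher than in every microglia library in 4 of 4 transgenic libraries.

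Transgenic against parabiotic cells gave an Arg1 change of -0.31 ± 1.19 (SE, log2, edgeR adjusted p = 0.918). Without transgenic replicate 27 it was -3.71 and was called (edgeR adjusted p = 0.00102), and without replicates 26 and 27 it was -3.79 (edgeR adjusted p = 0.00618). A term for the 2 later library numbers gave -3.77, which was not called (edgeR adjusted p = 0.0793; 10.7% of all tested genes were called with that term). Replicates 23, 24 and 26 each lay below every parabiotic library, and replicate 27 above all of them.

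Arg2 measured 40.6, 30.0 and 16.4 CPM in parabiotic cells. Transgenic replicates 23, 24, 26 and 27 had 6.195, 5.31, 3.34 and 20.1 CPM, and microglia had 0.254, 0.553 and 0.443 CPM, from 9 to 18 reads. The CD11c groups did not overlap the microglia, and only transgenic replicate 27 reached into the parabiotic range. Relative to microglia, Arg2 rose by 6.12 ± 0.76 in parabiotic cells (SE, log2, edgeR adjusted p = 0.000125) and by 4.39 ± 0.70 in transgenic cells (SE, log2, edgeR adjusted p = 0.00267). Both calls held in all 20 alternative settings, with changes between 5.80 and 6.40 for parabiotic and between 3.58 and 4.65 for transgenic cells. Of the 2 arginases, Arg2 gave the smaller standard error in every comparison.

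Transgenic against parabiotic cells gave an Arg2 change of -1.73 ± 0.54 (SE, log2), which missed the threshold (edgeR adjusted p = 0.0697). It was called by DESeq2, with an adjusted p of 0.0119, and by limma-voom, with an adjusted p of 0.0268. Without transgenic replicate 27 the change was -2.55 (edgeR adjusted p = 0.00132), and without replicates 26 and 27 it was -2.35 (edgeR adjusted p = 0.00161). With the term for later library numbers it was -2.33 (edgeR adjusted p = 0.0524).

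Arg2 shares 401 exon bases with genes on the opposite strand, among them Vti1b, a SNARE protein gene. The library kit does not mark strand, so reads in those bases cannot be told apart. Vti1b measured 69.1 to 84.6 CPM in parabiotic cells, 60.5 to 92.3 CPM in transgenic cells and 36.9 to 51.4 CPM in microglia. Its own change relative to microglia was 0.79 ± 0.20 in parabiotic cells and 0.73 ± 0.19 in transgenic cells (SE, log2, edgeR adjusted p = 0.0094 and 0.0264). The part of the shared bases in the Arg2 values was not tested.

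Other genes set transgenic replicate 27 apart as well. Its sum over 7 border macrophage markers was 1202 CPM, against 213.6 to 315.1 CPM in the other transgenic libraries. F13a1, one of the 7, measured 946.5 CPM against 155.4 to 219.7 CPM. That 1 gene made up most of the sum in replicate 27, so the sum mainly follows F13a1. Cd163, a scavenger receptor of border macrophages, measured 26.3 CPM there, against 0.936 to 3.59 CPM. The microglia marker sum was 8619 CPM, against 16125 to 20557 CPM, and Cx3cr1 measured 268.1 CPM, against 1746 to 2794 CPM. Its monocyte marker sum was 2987 CPM, against 782.7 to 2004 CPM, although Ccr2, a monocyte chemokine receptor, was lowest there at 130.9 CPM. The parabiotic libraries also lay above the 3 other transgenic libraries in the border macrophage sum, at 517.7 to 645.1 CPM. Most of that parabiotic sum was F13a1, at 482, 413 and 367.8 CPM, a gene that is also on the monocyte list. Cd163 measured 2.53, 2.83 and 2.31 CPM in parabiotic cells, within the range of the 3 other transgenic libraries, and 45.2, 49.4 and 17.6 CPM in microglia. The border macrophage sum of microglia was 200 to 406.6 CPM, and of its 7 genes 2 were called higher and 3 lower in parabiotic cells than in microglia. None of the 7 border macrophage markers was at 0 in all transgenic libraries, and Cd209f was at 0 in all parabiotic libraries. The part of these other transcripts in the Arg1 and Arg2 levels was not tested.

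**Figure D2:**
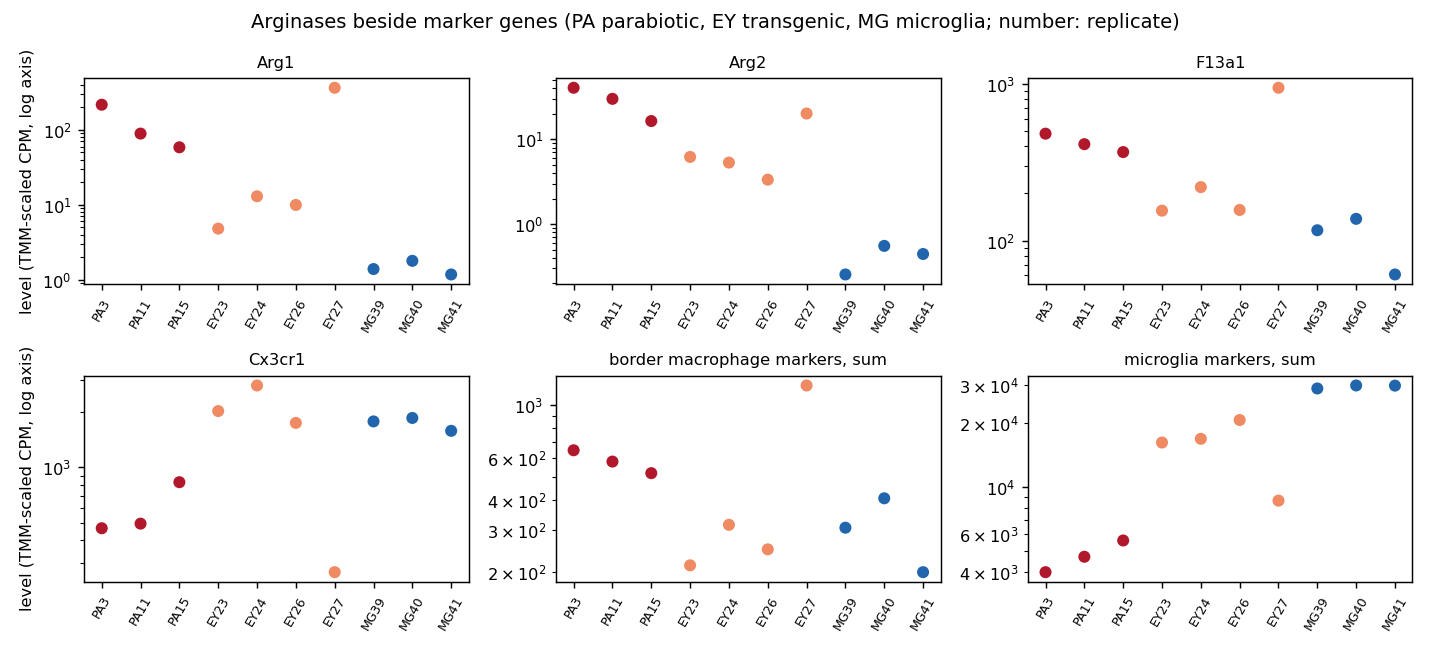
Arg1, Arg2, F13a1, Cx3cr1 and the summed border macrophage and microglia markers in each library, as TMM-scaled CPM on log axes, with parabiotic, transgenic and microglia libraries left to right. Transgenic replicate 27 (EY27) is highest for Arg1 at 365.5 CPM, for F13a1 and for the border macrophage sum, and lowest for Cx3cr1 at 268.1 CPM. Most of its border macrophage sum is F13a1.

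Neutrophil transcripts were unequal among the parabiotic libraries. The sum over 9 neutrophil markers, S100a8, Ly6g and Mmp8 among them, was 51.1, 955.6 and 179.9 CPM in parabiotic replicates 3, 11 and 15. It was between 18.1 and 50.7 CPM in transgenic cells and between 0.452 and 2.60 CPM in microglia. Mmp8 made up most of the sum in parabiotic replicate 3, at 44.7 CPM, and in each transgenic library, at 16.8 to 34.4 CPM. Ly6g was at 0 in parabiotic replicate 3, and at 4.08 and 0.638 CPM in replicates 11 and 15. Arg1 and Arg2 were highest in parabiotic replicate 3, which had the lowest neutrophil sum of its group. Conventional dendritic cell markers summed to 1241 to 1664 CPM in parabiotic cells, 190.9 to 791.2 CPM in transgenic cells and 16.6 to 21.3 CPM in microglia. Camp and Ngp were at 0 in all transgenic libraries, and Ly6g and Retnlg in all microglia libraries. The part of these cells in the arginase levels was not tested.

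Nos2 (ENSMUSG00000020826, chr11:78920787-78960254, plus strand), the inducible nitric oxide synthase, competes with the arginases for arginine. It measured 0.661, 0 and 0.121 CPM in parabiotic cells, from 23, 0 and 4 reads. Transgenic replicates 23, 24, 26 and 27 had 0.391, 0.243, 0.101 and 0.512 CPM, from 4 to 21 reads, and microglia had 0.0847, 0.0614 and 0.253 CPM, from 2 to 8 reads. The groups overlapped throughout, and all 10 libraries together held 88 reads. The fitted changes were 0.97 ± 1.12 for parabiotic cells and 1.22 ± 1.05 for transgenic cells, each relative to microglia (SE, log2, edgeR adjusted p = 0.536 and 0.447). Without parabiotic replicate 3 the parabiotic value turned to -1.08 (edgeR adjusted p = 0.567), so at this depth no direction can be given.

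The balance within a library can be read per kb of exon, with 0.25 added to each gene. The log2 ratio of Arg1 over Nos2 was 7.93, 7.33 and 6.58 in parabiotic libraries, 2.83, 4.31, 4.11 and 8.81 in transgenic libraries and 1.69, 1.99 and 1.34 in microglia. Every CD11c library lay above every microglia library, and the added 0.25 sets most of the Nos2 term. The mean differences from microglia were 5.61 for parabiotic and 3.34 for transgenic cells, with two-sided exact permutation p-values of 0.1 and 0.0571. Those are the smallest p-values that 3 against 3 and 4 against 3 libraries allow, and adjusted over 9 ratio tests both were 0.45. The log2 ratio of Arg1 over Arg2 averaged 1.29 ± 0.43 in parabiotic cells (SD, n = 3), 1.02 ± 1.85 in transgenic cells (SD, n = 4) and 0.74 ± 0.28 in microglia (SD, n = 3). The transgenic libraries ran between -0.93 and 3.52, wider than both other groups, and no adjusted exact permutation p for this ratio was below 0.514.

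Citrulline is recycled to arginine by Ass1 and Asl. Ass1 (ENSMUSG00000076441, chr2:31470207-31520672, plus strand) joins citrulline to aspartate and is the limiting step of that loop. It measured 5.72, 3.80 and 4.07 CPM in parabiotic cells, 5.55, 3.96, 2.25 and 2.51 CPM in transgenic cells and 2.29, 2.36 and 3.17 CPM in microglia. All parabiotic libraries lay above all microglia, whereas the transgenic libraries overlapped both. The change of 0.80 ± 0.37 in parabiotic cells relative to microglia was not called (SE, log2, edgeR adjusted p = 0.122). It was called when only those 2 groups were fitted (edgeR adjusted p = 0.0351), with the term for later library numbers (0.0342) and without transgenic replicates 26 and 27 (0.0234). Transgenic cells gave 0.45 ± 0.35 relative to microglia (SE, log2, edgeR adjusted p = 0.394). That value was 0.87 with the term for later library numbers (edgeR adjusted p = 0.112) and 0.86 without transgenic replicates 26 and 27 (edgeR adjusted p = 0.0696), and it was 0.16 without replicate 23 (edgeR adjusted p = 0.766). Transgenic against parabiotic cells gave -0.34 ± 0.34 (SE, log2, edgeR adjusted p = 0.613), and 0.07 with the term (edgeR adjusted p = 0.91).

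Ass1 has a near copy, Gm5424, on chromosome 10, and the pair matches at 1233 of 1239 aligned bases, or 99.5%. The 60 bases shown contain only 1 difference, in capitals at the last base, and the stretch without any difference runs to 398 bases, which a short read cannot assign to one gene.
Ass1 coding bases 340 to 399: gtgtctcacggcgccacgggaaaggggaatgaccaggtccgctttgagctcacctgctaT
Gm5424 bases 340 to 399: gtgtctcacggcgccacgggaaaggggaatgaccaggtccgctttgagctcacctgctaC
Gm5424 itself had 20 reads in all against 1254 for Ass1. No source used here gives the counting rule for reads that fit both genes, so the Ass1 level is uncertain.

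Asl (ENSMUSG00000025533, chr5:130011258-130029247, minus strand) splits argininosuccinate into arginine and fumarate. It measured 57.2, 60.7 and 56.5 CPM in parabiotic cells, 38.1, 39.7, 37.1 and 40.9 CPM in transgenic cells and 34.2, 31.6 and 35.5 CPM in microglia. The 3 groups did not overlap, and within each group the libraries lay close together. Asl rose in parabiotic cells relative to microglia by 0.78 ± 0.13 (SE, log2, edgeR adjusted p = 0.000908). In transgenic cells it was 0.21 ± 0.12 relative to microglia and was not called (SE, log2, edgeR adjusted p = 0.266). Asl fell by 0.58 ± 0.12 on the log2 scale in transgenic relative to parabiotic cells (SE, edgeR adjusted p = 0.0116), the 1 call among the 10 genes in that comparison. That call was lost without parabiotic replicate 3 (-0.59, edgeR adjusted p = 0.0529) or replicate 11 (-0.55, edgeR adjusted p = 0.0635). The mean level in transgenic cells was 0.670 of that in parabiotic cells, and Asl did not follow the jump of Arg1 in transgenic replicate 27.

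Odc1 (ENSMUSG00000011179, chr12:17544794-17551505, plus strand), ornithine decarboxylase, takes the product of the arginases into the polyamine route. Its level was 45.7, 38.6 and 42.7 CPM in parabiotic cells, 42.6, 30.5, 41.8 and 39.1 CPM in transgenic cells and 25.7, 37.2 and 46.0 CPM in microglia. Microglia spanned the range of both other groups. The changes relative to microglia were 0.22 ± 0.22 in parabiotic and 0.08 ± 0.20 in transgenic cells (SE, log2, edgeR adjusted p = 0.459 and 0.802). In the annotation 13 other genes match Odc1 transcripts at 95% identity or more over at least 100 bases, so its level is uncertain.

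Srm (chr4:148591503-148594993, plus strand) makes spermidine and Sms (chrX:157443855-157492287, minus strand) makes spermine. Srm measured 33.3, 24.5 and 28.8 CPM in parabiotic cells, 30.1, 31.5, 36.9 and 29.8 CPM in transgenic cells and 34.3, 30.7 and 38.2 CPM in microglia, with all 3 groups overlapping. Its change was -0.25 ± 0.17 in parabiotic and -0.10 ± 0.16 in transgenic cells relative to microglia (SE, log2, edgeR adjusted p = 0.284 and 0.699). Sms measured 7.38, 5.84 and 4.28 CPM in parabiotic cells, 4.91, 5.72, 5.31 and 6.04 CPM in transgenic cells and 4.49, 4.45 and 4.72 CPM in microglia. The transgenic libraries all lay just above the microglia, and the change of 0.27 ± 0.23 was not called (SE, log2, edgeR adjusted p = 0.443). Parabiotic cells gave 0.36 ± 0.25 (SE, log2, edgeR adjusted p = 0.291).

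The pseudogene Sms-ps carries all 1101 coding bases of Sms without a difference, so no sequence of the coding part can separate them. The first 60 bases, the same in both, are shown in lower case throughout.
Sms and Sms-ps bases 1 to 60: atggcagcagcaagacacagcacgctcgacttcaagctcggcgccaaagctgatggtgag
Sms-ps was counted with 25 reads in all, against 1889 for Sms, and 10 genes match Sms at 95% identity or more over at least 100 bases, so the Sms level is uncertain. Odc1, Srm and Sms stayed between -0.25 and 0.36 in log2 change over the 3 comparisons, with no call.

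Polyamines are broken down by Sat1 and Smox. Sat1 (ENSMUSG00000025283, chrX:155213132-155216449, minus strand) acetylates spermidine and spermine for export or oxidation, and it was the most abundant of the 10 genes in each group. It measured 564.3, 680.7 and 657.6 CPM in parabiotic cells, 493, 519.1, 648.9 and 726.9 CPM in transgenic cells and 567.7, 577.6 and 604.7 CPM in microglia. The groups overlapped, and the change was 0.12 ± 0.18 in parabiotic and 0.03 ± 0.16 in transgenic cells relative to microglia (SE, log2, edgeR adjusted p = 0.632 and 0.908). Transgenic replicates 26 and 27 were the high ones of their group, and with the term for later library numbers the transgenic value was -0.21 (edgeR adjusted p = 0.438).

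Smox (ENSMUSG00000027333, chr2:131491496-131525922, plus strand) oxidises spermine to spermidine and releases hydrogen peroxide. Its level was 108.6, 91.1 and 87.0 CPM in parabiotic cells, 107.8, 118.6, 110.7 and 88.5 CPM in transgenic cells and 141.5, 157.4 and 161.1 CPM in microglia. Every CD11c library lay below every microglia library, and the CD11c groups overlapped each other. Smox fell by 0.68 ± 0.16 on the log2 scale in parabiotic cells relative to microglia (SE, edgeR adjusted p = 0.00639), a call that held in all 20 alternative settings. In transgenic cells it fell by 0.53 ± 0.15 (SE, log2, edgeR adjusted p = 0.0373). This second call was lost in 10 of 20 settings while the change stayed between -0.59 and -0.43. Those settings include a term for later library numbers (-0.44, edgeR adjusted p = 0.12) and leaving out transgenic replicate 23, any 1 microglia library or any 1 parabiotic library, with an edgeR adjusted p of at most 0.14. Transgenic against parabiotic cells gave 0.15 ± 0.15 (SE, log2, edgeR adjusted p = 0.593).

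**Figure D3:**
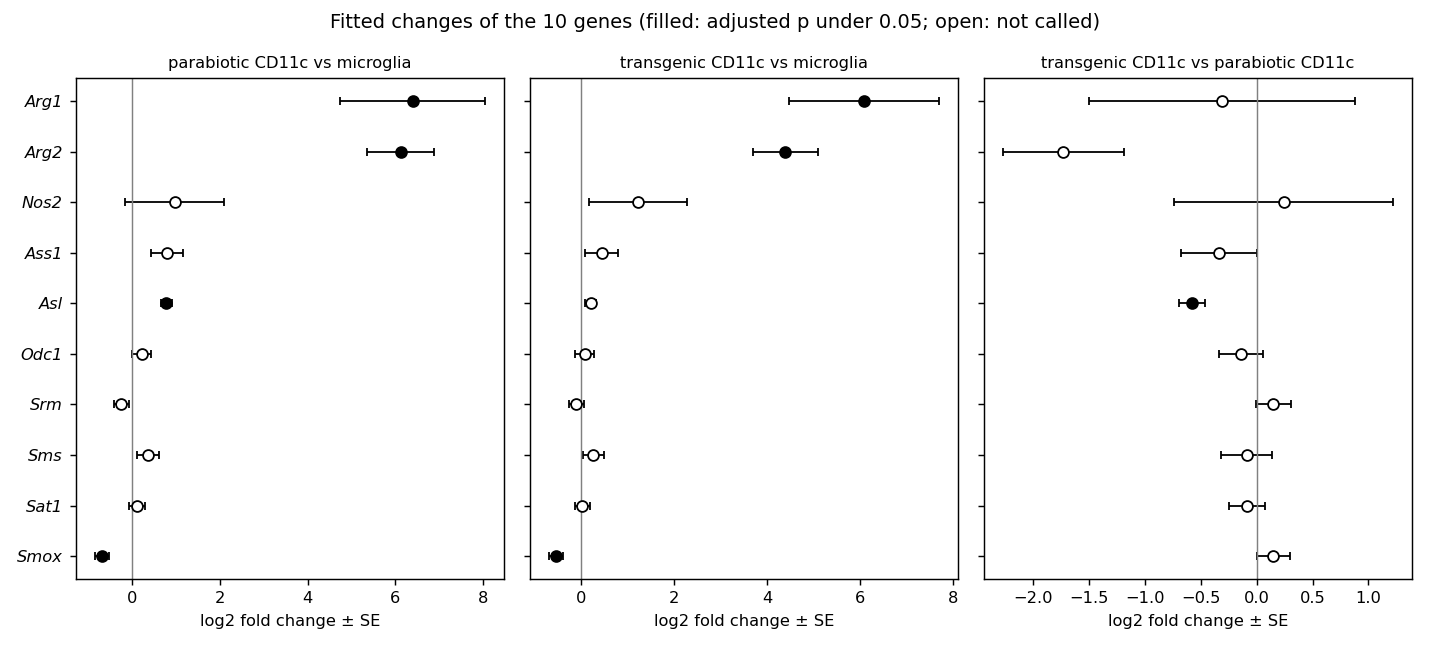
Fitted log2 fold change of each gene with its SE in the 3 comparisons, filled where the edgeR adjusted p was under 0.05 and open otherwise; the horizontal scales differ between panels. Arg1 and Arg2 lie between 4.39 and 6.39 against microglia, Smox lies below 0 in both of those panels, and Asl is the only filled point between the CD11c populations.

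Levels of different genes can be set side by side only per length of exon. Per kb, Sat1 averaged 228.6 CPM in parabiotic cells, 215.2 CPM in transgenic cells and 210.3 CPM in microglia, and it ranked first of the 10 in each group. Arg1 ranked second in parabiotic cells, at 54.6 CPM per kb, second in transgenic cells, at 44.1 CPM per kb, and eighth in microglia, at 0.649 CPM per kb. The transgenic rank rests on replicate 27, since the other 3 libraries had 2.15 to 5.82 CPM per kb, below Srm at 18.6 CPM per kb or more. Arg2 averaged 20.3 CPM per kb in parabiotic cells, 6.13 in transgenic cells and 0.292 in microglia. Smox led the remaining genes in microglia at 39.4 CPM per kb, with Srm next at 21.5 CPM per kb. Nos2 was last in all 3 groups. Within microglia, Asl (6.55 to 7.35) and Odc1 (7.56 to 13.5 CPM per kb) were adjacent without overlap. Srm at 15.3 to 20.9 and Arg2 at 11.5 to 28.4 CPM per kb overlapped in parabiotic cells.

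**Figure D4:**
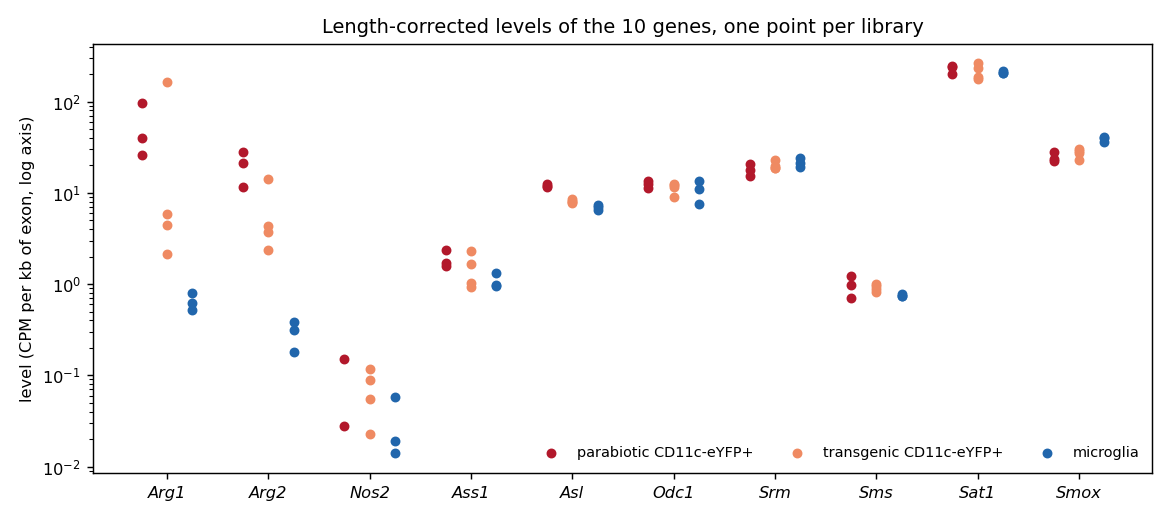
CPM per kb of exon for the 10 genes, on a log axis, one point per library with parabiotic, transgenic and microglia libraries left to right for each gene; the parabiotic Nos2 value of 0 is not drawn. Sat1 is the highest gene in every library, whereas Arg1 moves between the second and the eighth place of the group means.

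RefSeq promoter windows on GRCm38.p6 were matched for 5 of the 10 genes. Those of Ass1 and Odc1 are shown because they open the arginine and the polyamine arms. CACGTG was among the motifs searched, and Myc, a regulator known to bind it, differed between the groups. Ass1 holds 1 CACGTG, in capitals, which contains ACGTG, the core of hypoxia response elements, on each strand. The Odc1 window holds none of the motifs searched on both strands, which were the TATA box (TATAAA), the E-box (CACGTG), the hypoxia core (ACGTG), a STAT motif (TTCNNNGAA), its form with 1 more N in the middle, a C/EBP-like motif (TTNCNNNAA) and the kappa-B motif.
Ass1, chr2:31470020-31470319, plus strand: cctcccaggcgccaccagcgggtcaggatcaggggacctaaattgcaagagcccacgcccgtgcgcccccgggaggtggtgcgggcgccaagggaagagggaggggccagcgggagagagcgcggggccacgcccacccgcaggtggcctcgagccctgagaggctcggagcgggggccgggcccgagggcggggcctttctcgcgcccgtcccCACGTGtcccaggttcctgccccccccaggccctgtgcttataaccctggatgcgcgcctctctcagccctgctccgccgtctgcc
Odc1, chr12:17544623-17544922, plus strand: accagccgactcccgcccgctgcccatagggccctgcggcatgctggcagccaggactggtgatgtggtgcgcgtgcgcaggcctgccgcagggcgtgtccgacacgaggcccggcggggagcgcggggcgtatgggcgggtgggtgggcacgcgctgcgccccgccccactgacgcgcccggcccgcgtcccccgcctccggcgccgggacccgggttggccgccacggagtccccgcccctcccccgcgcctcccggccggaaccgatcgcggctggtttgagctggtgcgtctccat
Of 32851 windows of this kind, 7.15% hold the E-box, 19.6% the hypoxia core, 13.6% the TATA box and 8.46% the kappa-B motif. The STAT motif is in 8.3%, its longer form in 6.95% and the C/EBP-like motif in 36.6%. Among the windows not shown, the Sms window at chrX:157492238-157492537 holds 1 CACGTG, 2 hypoxia core, 2 C/EBP-like and 2 kappa-B matches. The other Sms window holds 1 kappa-B match, the Sat1 window 1 C/EBP-like match and the Smox window none. Sequence outside these windows was not searched. A match here describes letters and not a used site.

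Genes around the pathway were grouped in 11 lists by role, in all 73 tested genes of 86 present in the table. Of these, 15 were higher and 13 lower in parabiotic cells than in microglia, 8 higher and 5 lower in transgenic cells than in microglia, and 6 higher and 4 lower in transgenic than in parabiotic cells. The median log2 change over them was 0.24, 0.13 and 0.00 in that order. Of all tested genes, 17.4% were higher and 17.9% lower in the first of these comparisons. The shares were 8.88% and 4.79% in the second and 7.63% and 2.42% in the third. The 4 lower of 73 in the third lie above its 2.42%, a difference that was not tested. The shares of all tested genes given here are the background for the count of each list below. They are repeated beside only some of those counts, and the lists are described gene by gene.

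Arginine enters cells through cationic amino acid transporters, and 1 of 6 uptake genes was called. Slc7a2, the transporter known to accompany arginase induction in mouse macrophages, averaged 10.8 ± 2.16 CPM in parabiotic cells, 6.404 ± 1.67 CPM in transgenic cells and 0.657 ± 0.144 CPM in microglia (SD, n = 3, 4 and 3). It rose by 4.04 ± 0.33 in parabiotic and 3.28 ± 0.32 in transgenic cells relative to microglia (SE, log2, edgeR adjusted p = 1.09e-05 and 0.000162). Transgenic replicate 27, at 8.01 CPM, did not stand apart for Slc7a2 as it did for Arg1. Slc7a1, the transporter found in most cells, measured 15.0 to 22.9 CPM in parabiotic cells, 13.8 to 23.3 CPM in transgenic cells and 17.0 to 23.3 CPM in microglia.

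Nitric oxide synthases need tetrahydrobiopterin, and methylated arginines inhibit them. Among 9 tested genes of this list, Spr, the last enzyme of tetrahydrobiopterin synthesis, rose by 1.08 ± 0.15 in parabiotic cells and 0.72 ± 0.15 in transgenic cells relative to microglia (SE, log2, edgeR adjusted p = 0.00031 and 0.0094). Its mean levels were 25.5, 19.7 and 12.02 CPM in parabiotic cells, transgenic cells and microglia. Ddah2, of the dimethylarginine dimethylaminohydrolase family, averaged 3.31 ± 0.585 CPM in parabiotic cells, 8.61 ± 2.72 CPM in transgenic cells and 16.8 ± 1.81 CPM in microglia (SD, n = 3, 4 and 3). It fell by 2.34 ± 0.30 in parabiotic and by 0.96 ± 0.26 in transgenic cells relative to microglia (SE, log2, edgeR adjusted p = 0.000162 and 0.0353). With the term for later library numbers the transgenic value was -0.89 and was not called (edgeR adjusted p = 0.136). Transgenic cells held more Ddah2 than parabiotic cells, by 1.38 ± 0.28 (SE, log2, edgeR adjusted p = 0.0097).

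Ornithine can leave the polyamine route through Oat, ornithine aminotransferase, on the way to proline and glutamate. Of 8 tested genes of the urea cycle and ornithine use, Oat was the 1 called, with 139.5, 116.9 and 135.2 CPM in parabiotic cells and 78.0, 91.0 and 84.0 CPM in microglia, a rise of 0.63 ± 0.19 (SE, log2, edgeR adjusted p = 0.0263). In transgenic cells Oat had 96.8, 90.8, 120.1 and 148.8 CPM, overlapping both other groups. Arginine also supplies creatine, and of 4 tested creatine genes Slc6a8, the creatine transporter, rose by 2.47 ± 0.51 in parabiotic and 2.0 ± 0.49 in transgenic cells relative to microglia (SE, log2, edgeR adjusted p = 0.00339 and 0.0223). With the term for later library numbers the transgenic Slc6a8 value was 1.31 and was not called (edgeR adjusted p = 0.122). Ckb, brain creatine kinase, fell by 0.98 ± 0.24 in parabiotic cells (SE, log2, edgeR adjusted p = 0.00903).

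Polyamine synthesis is also controlled by antizymes and by S-adenosylmethionine decarboxylase. Of 8 tested genes of this list, only Sat2, a low-abundance relative of Sat1, was called against microglia, where it fell by 1.63 ± 0.48 in parabiotic cells (SE, log2, edgeR adjusted p = 0.0218). The 1 tested gene of the agmatine branch, Azin2, an antizyme inhibitor, was not called. The antizyme gene Oaz1, whose product sends ornithine decarboxylase for degradation, measured 46.7 to 52.1 CPM in parabiotic cells, 45.8 to 65.9 CPM in transgenic cells and 32.5 to 43.8 CPM in microglia. Its changes of 0.40 ± 0.18 and 0.51 ± 0.17 relative to microglia were not called (SE, log2, edgeR adjusted p = 0.111 and 0.0662). Of 4 tested transport genes, Slc18b1, a vesicular polyamine transporter, was nearly absent from parabiotic cells at 0.804, 0.426 and 0.820 CPM. It measured 13.1, 14.3, 20.7 and 9.45 CPM in transgenic cells and 17.3, 20.3 and 21.8 CPM in microglia. It fell by 4.85 ± 0.36 in parabiotic cells relative to microglia (SE, log2, edgeR adjusted p = 6.17e-06), and transgenic cells exceeded parabiotic cells by 4.39 ± 0.35 (SE, log2, edgeR adjusted p = 4.06e-05). The microglia marker sum was lowest in parabiotic cells too; its part in the Slc18b1 levels was not tested.

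Spermidine is the substrate for hypusination of eIF5A, a modification that the translation factor needs. Of the 4 genes of that list, 3 rose in parabiotic cells relative to microglia, beside 17.4% of all tested genes higher. The median log2 change of the 4 was 0.61, against -0.02 for all genes tested. Eif5a, the factor, averaged 527.7 ± 38.7 CPM in parabiotic cells and 309.3 ± 28.7 CPM in microglia (SD, n = 3 each), a rise of 0.77 ± 0.19 (SE, log2, edgeR adjusted p = 0.00786). Dhps and Dohh, the hypusinating enzymes, rose by 0.54 ± 0.15 and 0.68 ± 0.16 (SE, log2, edgeR adjusted p = 0.018 and 0.00652). In transgenic cells relative to microglia Eif5a, Dhps and Dohh were not called, at 0.50 ± 0.17, 0.03 ± 0.14 and 0.21 ± 0.15 (SE, log2, edgeR adjusted p = 0.0756, 0.916 and 0.339). Dhps fell by 0.51 ± 0.14 in transgenic relative to parabiotic cells (SE, log2, edgeR adjusted p = 0.0425). Polyamine synthesis releases methylthioadenosine, which methionine salvage recycles. Mri1, a salvage isomerase, was the 1 of 8 salvage genes called, with a mean of 31.1 CPM in parabiotic cells and 11.4 CPM in microglia, a rise of 1.45 ± 0.26 (SE, log2, edgeR adjusted p = 0.00143). Mri1 fell by 0.95 ± 0.24 in transgenic relative to parabiotic cells (SE, log2, edgeR adjusted p = 0.0276), with its lowest transgenic level, 9.38 CPM, in replicate 27. With the term for later library numbers Mri1 was at -0.67 and was not called (edgeR adjusted p = 0.0851), and Dhps was at -0.52 (edgeR adjusted p = 0.0495).

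Of 12 genes known to induce Arg1 or Nos2, 1 rose and 5 fell in parabiotic cells relative to microglia, beside 17.4% of all tested genes higher and 17.9% lower. The median log2 change of the 12 was -0.48, against -0.02 for all genes tested. Pparg, a nuclear receptor required for full Arg1 induction in mouse macrophages, measured 13.0, 9.64 and 15.2 CPM in parabiotic cells, 5.67, 6.98, 4.93 and 1.97 CPM in transgenic cells and 0.198, 0.645 and 0.570 CPM in microglia. It rose by 4.74 ± 0.55 in parabiotic and 3.37 ± 0.51 in transgenic cells relative to microglia (SE, log2, edgeR adjusted p = 7.62e-05 and 0.00188). Within the transgenic group it was lowest in replicate 27, where Arg1 was highest. Irf1, which carries interferon signals to Nos2, fell by 1.78 ± 0.24 in parabiotic cells relative to microglia (SE, log2, edgeR adjusted p = 0.000235). Myc, which controls Odc1 in many cells, measured 33.9, 30.7 and 28.1 CPM in parabiotic cells, 55.7, 59.6, 76.1 and 54.4 CPM in transgenic cells and 136.9, 83.4 and 91.8 CPM in microglia. Its 3 groups did not overlap, and it fell by 1.75 ± 0.22 in parabiotic cells relative to microglia (SE, log2, edgeR adjusted p = 0.000124). Odc1 was not called in that comparison. Whether Pparg bears on the Arg1 levels, or Myc on the Odc1 levels, was not tested. Irf1 and Myc were higher in transgenic than in parabiotic cells, by 0.87 ± 0.23 and 0.99 ± 0.20 (SE, log2, edgeR adjusted p = 0.0325 and 0.00956). With the term for later library numbers these were 0.66, not called, for Irf1 and 0.90 for Myc (edgeR adjusted p = 0.103 and 0.0285). Il10ra, the interleukin 10 receptor chain, fell by 1.13 ± 0.26 in parabiotic cells and by 1.08 ± 0.24 in transgenic cells relative to microglia (SE, log2, edgeR adjusted p = 0.00588 and 0.0138). The interleukin 4 pathway genes Stat6 and Il4ra were not called, at 312.2 and 491.4 CPM on average in parabiotic cells, 251.3 and 381.2 CPM in transgenic cells and 289.6 and 382.2 CPM in microglia.

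Genes of alternative activation moved in both directions: of 10 genes, 6 rose and 2 fell in parabiotic cells relative to microglia, beside 17.4% and 17.9% of all tested genes. In transgenic cells relative to microglia 4 rose and 1 fell, beside 8.88% and 4.79% of all tested genes, and the 1 that fell, Egr2, was not called with the term for later library numbers (-1.17, edgeR adjusted p = 0.0497; with the term -1.05, edgeR adjusted p = 0.216). The median log2 change of the 10 was 2.38 in parabiotic and 1.34 in transgenic cells. Chil3, the chitinase-like protein Ym1, measured 145.4, 138.3 and 67.7 CPM in parabiotic cells, 35.8, 29.7, 78.3 and 499.3 CPM in transgenic cells and at most 0.0847 CPM in microglia. Its transgenic pattern repeated that of Arg1, with replicate 27 far above the rest. Ccl22, a dendritic cell chemokine, rose by 5.31 ± 0.48 in parabiotic and 3.78 ± 0.45 in transgenic cells relative to microglia (SE, log2, edgeR adjusted p = 1.75e-05 and 0.000444), and Clec10a, a galactose lectin of dendritic cells and macrophages, rose by 3.70 ± 0.72 in parabiotic cells (SE, log2, edgeR adjusted p = 0.00228). Cd163 fell by 3.87 ± 1.13 in parabiotic cells relative to microglia (SE, log2, edgeR adjusted p = 0.021). Egr2, an early growth response factor, fell by 1.67 ± 0.39 in parabiotic cells relative to microglia (SE, log2, edgeR adjusted p = 0.00645). Retnla stayed under 1 CPM in all libraries, and Mrc1, the mannose receptor, averaged 57.1 CPM in parabiotic cells, 52.1 CPM in transgenic cells and 109.2 CPM in microglia without a call.

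**Figure D5:**
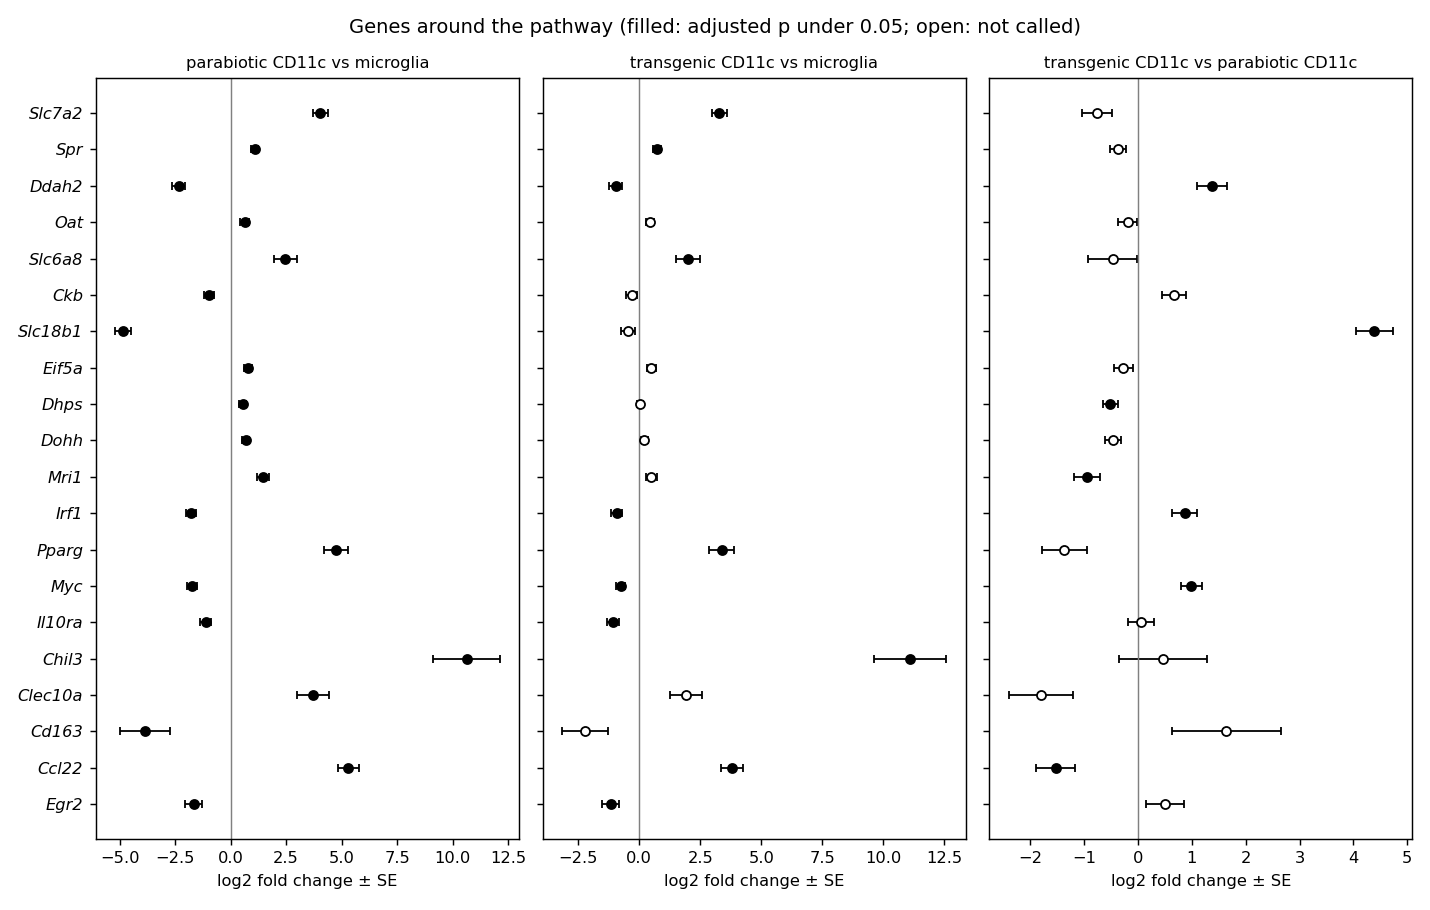
Log2 fold change with SE of 20 genes around the pathway in the 3 comparisons, filled where the edgeR adjusted p was under 0.05; the horizontal scales differ between panels. Slc7a2, Pparg, Ccl22 and Chil3 lie far to the right of 0 in both comparisons with microglia, and Slc18b1 lies at -4.85 in parabiotic cells relative to microglia.

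The genes whose levels ran most like Arg1 over the 10 libraries, by the root mean square difference of centred log2 CPM among 10195 candidates, were Ctsk (0.95), Clec4d (1.00), S100a10 (1.04), Arg2 (1.08) and Ttc39c (1.12), against 2.90 for the spread of Arg1 itself. Ctsk is a cysteine protease, Clec4d a C-type lectin of myeloid cells and S100a10 a partner of annexin A2. Ctsk measured 19.6, 7.39 and 4.28 CPM in parabiotic cells, 1.56, 3.37, 4.02 and 35.3 CPM in transgenic cells and 0.508, 0.276 and 0.0950 CPM in microglia. It shared the peak in transgenic replicate 27 and the high value in parabiotic replicate 3. None of these 5 was among the 5 with the highest Pearson correlation of log2 CPM, which is a different measure that ignores the size of the swing. Among the nearest to Odc1 were Gadd45gip1 (0.13), Stip1, Eif2b5 and Srprb (0.15 each), against a spread of 0.25 for Odc1, and 3 of the nearest 5 were also in the top 5 by correlation. For Nos2 the nearest gene, Psma8, differed by 1.40 against a spread of 1.80, so with 88 reads no close match was found. These likenesses describe 10 libraries of 3 kinds that share their group differences.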

How the data were processed

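Poly-A RNA from sorted cells was amplified with the SMART-Seq v4 kit and made into libraries with the NEBNext Ultra kit, per the labels. The input was 1 or 5 ng of RNA with 11 or 9 PCR cycles, per the labels, and which library had which is not stated, so amplification can add noise to low counts. The authors deposited 1 table of raw gene counts for 10 libraries, with no normalization. Alignment to GRCm38 is named in the submitters' processing notes, along with the tools STAR 2.5.3a, FastQC 0.11.5 and DESeq2, without their roles. No source used here gives the counting tool, its strand setting or its treatment of reads that fit several genes.

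Gene identifiers were paired with symbols from the given annotation (28492 of 28585). All 10 libraries were fitted together in edgeR 4.0.16 (R 4.3.3) with 1 mean per group, TMM scaling, filterByExpr (15151 genes kept, 13434 removed) and robust quasi-likelihood F tests. SE is the absolute log2 fold change divided by the root of F. Alternatives used DESeq2 1.42.0, limma 3.58.1 (voom), other scalings and filters, a term for 2 library numbers, and each library left out. The fit was tested on simulated data. Within-library ratios were compared by two-sided exact permutation over libraries. Read counts have no molecular identifiers.

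The members, partner lists and marker lists were chosen with earlier results of these data known. Of each partner list and comparison, up to 3 called genes with the largest change in the direction with more calls and 1 in the other were named, among genes with a group mean of at least 5 CPM; Sat2, Azin2, Slc7a1, Oaz1, Stat6, Il4ra, Mrc1 and Retnla fall outside that rule and were chosen after their values were seen. Some items that this rule names are not reported here. No groups share replicate numbers.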

Additional observations from a re-analysis of the deposited data

Results flagged for a closer look

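In transgenic replicate 27 Arg1 measured 365.5 CPM, against 4.80 to 12.97 CPM in the other 3 transgenic libraries. That gap filled 0.977 of the group's whole range, above the 95% critical value of Dixon's test for 4 libraries. Arg2 in the same library measured 20.14 CPM, against 3.34 to 6.195 CPM, a gap of 0.830 of the range and thus just past the critical value. Cd163, the scavenger receptor of border macrophages, measured 26.26 CPM, against 0.9362 to 3.586 CPM (0.895 of the range). Chil3, the chitinase-like protein Ym1, measured 499.3 CPM, against 29.66 to 78.34 CPM (0.896 of the range). Of 32 genes tested in this way, these 4 stood apart, all in the same library. The ratios were taken on CPM and not on a log scale. The critical value, with its chance rate of about 1 in 20, assumes normally distributed values, which 4 libraries cannot show. Whether the 4 genes pass on a log scale was not tested. The 32 do not include every gene of the partner and marker lists, so how many others stand apart is not known. F13a1, which was not among them, measured 946.5 CPM in replicate 27, against 155.4 to 219.7 CPM in the other transgenic libraries. The other 8 members did not stand apart in the transgenic group. The parabiotic and microglia groups, with 3 libraries each, are too small for this test.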

How the results depend on the processing

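The Arg2 calls of both CD11c populations relative to microglia and the Asl and Smox calls of parabiotic cells relative to microglia held in all 20 settings. No called gene changed direction in any of them. Members called in transgenic cells relative to microglia numbered 3 (2 higher, 1 lower), and 1 (1 higher, 0 lower) without a filter on low counts, with only the 2 groups fitted or with a term for the later library numbers; limma-voom called 1 higher. Leaving out each library in turn gave 1 to 3 there, 1 to 2 higher and 0 to 1 lower. Members called in transgenic relative to parabiotic cells numbered 1, all lower, and 2 by DESeq2 or limma-voom and 3 without transgenic replicates 26 and 27, a setting chosen after seeing the data. Leaving out each library in turn gave 0 to 3, with 3 reached without replicate 27. Of the partner genes, 28 were called in parabiotic cells relative to microglia, and 46 without replicates 26 and 27. In transgenic cells relative to microglia 13 were called, and 5 to 19 when each library was left out, with 5 and 7 without microglia replicates 39 and 40. In transgenic relative to parabiotic cells 10 were called, and 5 with only the 2 groups fitted or with the term, 18 without replicates 26 and 27, and 2 to 20 when each library was left out. The lowest came without parabiotic replicates 3 and 15 (2 each), 11 (4) and microglia replicate 40 (6), and the highest without transgenic replicate 27 (20). Upper quartile scaling moved the median of all genes in parabiotic cells relative to microglia to -0.10 on the log2 scale, against -0.02 with TMM. Nos2 was removed by the filter of 5 CPM in 3 libraries and had fewer settings. The causes of these changes were not tested. Depth limits Nos2 most, with 88 reads in 10 libraries. No paired analysis was possible because the groups compared share no replicate numbers.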
